A study of Mus musculus with 6 samples.

Results

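Interferon-stimulated and antigen presentation genes were followed as a set of 41 named genes in mouse corneal epithelium. They were chosen by gene symbol, from what each gene is known to do, with earlier results of these data known. Of the 41, 39 were analysed among 17784 genes. *Mx1* and *Mx2* were not analysed here. The 39 genes fell into 10 roles, which were 4 transcription factors, 3 RNA sensors, 5 OAS family genes, 3 IFIT genes, 2 genes of the ISG15 system, 12 other antiviral effectors, 3 MHC class I chains, 3 genes of peptide transport and loading, 3 immunoproteasome subunits and the class I transactivator *Nlrc5*.

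Bulk RNA-seq compared corneal epithelial cells of 3 *Prrx1-CreERT;Ptch1 f/f* samples (Ptch1-ablated) with those of 3 *Ptch1 f/f* samples (control), described as biological replicates. Mice of both groups carried the floxed *Ptch1* allele and received 3 doses of tamoxifen (TAM), the drug that activates CreERT. The labels give an age of 10 weeks and an interval of 2 months, the study's methods give 2 months of age at induction, and the epithelium was separated with EDTA. Mice of both sexes entered the study, and the sex and number of mice behind each sample were not given in the sources used here. *Prrx1-CreERT* is described as active in keratocytes, corneal endothelium and other ocular mesenchymal cells, so deletion was not directed at the epithelium, and *Ptch1* RNA in the epithelium does not measure it. *Ptch1*, the Hedgehog receptor, ranged from 517 to 682 normalized counts in control epithelium and from 390 to 471 in Ptch1-ablated epithelium (log2 fold change -0.51, adjusted p = 0.0401 in edgeR's quasi-likelihood fit).

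Each sample held 20296741 to 20625813 expected counts, so that 3 counts, taken as a floor for counting error only, stood for 0.145 to 0.148 CPM (counts scaled to library size). A normalized count is an expected count scaled for library size and composition and is comparable between samples. TPM, a measure of transcript abundance, is also scaled for gene length and was used to compare genes. On the first principal component of all tested genes, with 56.7% of the variance, controls lay between -34.9 and -27.4, Ptch1-ablated replicates 2 and 3 at 19.2 and 20.03, and Ptch1-ablated replicate 1 apart at 53.8. Corneal epithelial markers were abundant in every sample, with a sum over 8 of them of 89584 to 109740 TPM, most of it from *Krt12*, *Krt5* and *Aldh3a1*. Within this list *Krt14* rose from 534 to 644 TPM in controls to 2420 to 5798 TPM in Ptch1-ablated samples (log2 fold change 2.81, adjusted p = 0.00769 in edgeR's fit). *Pax6* was lower without overlap of the groups but did not pass (-0.22, adjusted p = 0.112). Of 18 leukocyte markers, 10 stayed at or under 10 normalized counts in every sample, among them *Ptprc*, the pan-leukocyte marker, at 0.983 to 8.74. Others of the list were abundant. *Itgam* had 3024 to 4295 normalized counts in controls and 4468 to 6056 in Ptch1-ablated samples, and *Cd68* had 507 to 798 over all samples. Outside Ptch1-ablated replicate 1, *Itgam* and *Cd68* made up most of the sum of the list, so that sum is not a measure of leukocyte number. The summed level of the leukocyte markers was 127 to 164 TPM in controls and 161, 188 and 668 TPM in Ptch1-ablated samples. The 668 was in replicate 1, where *S100a9*, which neutrophils and stressed keratinocytes express, had 1798 normalized counts against 2.98 to 30.9 in the others. Of 9 stromal markers the sum was 56.5 TPM in control replicate 3 and 8.27 to 12.9 TPM in the others. In that sample *Col1a2* had 1239 normalized counts, *Vim* 342 and *Col5a2* 151, against at most 131, 50.7 and 71.8 in the others. *Pdgfra* had 210 to 428 over all samples. Of the 9, 3 stayed at or under 10 normalized counts in every sample, among them *Kera*, which marks keratocytes, at under 1. The summed level of 5 conjunctival markers was 1408 to 2351 TPM in controls and 2202 to 4745 TPM in Ptch1-ablated samples, highest in replicate 1. Most of it came from *Krt13*, at 1193 to 1877 and 1843 to 3182 TPM. Of the 4 conjunctival markers tested, 0 passed the adjusted threshold in edgeR's fit, where 14.0% of all tested genes did.

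Type I and type III interferons signal through JAK kinases to the complex ISGF3, which includes STAT2 and IRF9. ISGF3 binds the interferon-stimulated response element (ISRE) in the promoters of antiviral genes, and many of these keep a low level of activity without infection. Interferon gamma acts through GAS elements. Both pathways raise MHC class I presentation, in which the immunoproteasome cuts proteins, TAP carries the peptides into the endoplasmic reticulum, tapasin loads them, and a heavy chain with beta-2 microglobulin displays them to CD8 T cells.

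The promoters of the members were searched for the letters of the 2 elements in RefSeq windows of 300 bases, 250 before and 50 after each start site, in build GRCm38.p6. Windows were found for 32 of the 39 members. The ISRE was searched as GAAANNGAAA and the GAS element as TTCNNNGAA, both on either strand, with overlapping matches counted separately. ISRE letters were found in 15 members and in 38.5% of the 39 member windows, against 3.44% of all 32851 windows. GAS letters were found in 8 members and in 20.5% of member windows, against 8.30% of all windows. The ISRE matches were uneven between roles, with 14 of 24 antiviral and regulatory members and 1 of 8 antigen presentation members, *B2m*. These matches describe letters only, and binding was not measured. Because the members were chosen for their known part in interferon responses, their excess over all windows is no separate result. The stretches before the start site of 5 members are shown because they hold the matches, in capitals, at different distances and on both strands. The last is the stretch between the opposite start sites of *Tap1* and *Psmb9*, shown because this pair shares a promoter and has no ISRE match in it. It is written on the plus strand, and the others run 5′ to 3′ on the strand of the gene.
Isg15, chr4:156200819-156200968 (- strand): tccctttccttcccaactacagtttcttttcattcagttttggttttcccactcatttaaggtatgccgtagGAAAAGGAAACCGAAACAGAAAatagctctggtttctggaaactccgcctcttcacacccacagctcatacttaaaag
Ifit1, chr19:34640739-34640888 (+ strand): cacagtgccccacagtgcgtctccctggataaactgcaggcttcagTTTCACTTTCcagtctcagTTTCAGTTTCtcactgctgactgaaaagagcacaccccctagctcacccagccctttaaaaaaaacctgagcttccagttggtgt
Oas1g, chr5:120887614-120887763 (- strand): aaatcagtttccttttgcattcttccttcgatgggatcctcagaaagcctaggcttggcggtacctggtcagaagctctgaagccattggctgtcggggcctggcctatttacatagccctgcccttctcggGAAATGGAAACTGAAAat
Bst2, chr8:71537473-71537622 (- strand): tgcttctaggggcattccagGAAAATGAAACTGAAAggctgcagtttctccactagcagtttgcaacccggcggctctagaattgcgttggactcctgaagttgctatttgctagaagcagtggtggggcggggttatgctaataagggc
B2m, chr2:122147537-122147686 (+ strand): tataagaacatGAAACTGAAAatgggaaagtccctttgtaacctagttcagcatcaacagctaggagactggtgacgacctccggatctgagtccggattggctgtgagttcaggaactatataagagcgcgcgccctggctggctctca
Tap1 and Psmb9, chr17:34187331-34187555 (+ strand): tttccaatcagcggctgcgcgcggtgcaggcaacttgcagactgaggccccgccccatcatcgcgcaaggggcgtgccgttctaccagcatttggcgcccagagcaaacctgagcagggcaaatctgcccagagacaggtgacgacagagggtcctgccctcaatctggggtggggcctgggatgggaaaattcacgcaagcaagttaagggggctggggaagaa
*Isg15* had 3 overlapping matches that began at -78, -72 and -66 from the start site. *Ifit1* had matches at -104 and -85 on the opposite strand, *Oas1g* at -18 and -12, *Bst2* at -130 and -124, and *B2m* had 1 match at -139.

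No member passed the test of a difference between the groups. Of the 39 members, 0 were higher and 0 were lower in Ptch1-ablated epithelium at an adjusted p of at most 0.05 in edgeR's quasi-likelihood test, where 14.0% of 12999 tested genes passed, 7.61% higher and 6.41% lower. With a fold change of at least 2 added, again 0 passed in either direction, against 3.23% of tested genes, 2.34% higher and 0.892% lower. At an unadjusted p under 0.05 there were 0 members and 33.5% of tested genes, 17.0% higher and 16.5% lower. DESeq2 called 0 members at the adjusted threshold, against 10.3% of all genes it tested higher and 7.95% lower, and limma-voom 0, against 7.11% and 6.39%. Control and Ptch1-ablated values overlapped for every member, whereas the groups did not overlap for 39.9% of tested genes. The smallest adjusted p was 0.217, for *Psmb8*.

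The members' median log2 fold change was -0.11, beside -0.01 over all tested genes, with 30 members below 0 and 9 above. The data were not equally firm for each member. For 20 members the 95% interval excluded a 2-fold change in either direction, for 18 it still allowed a 2-fold lower level and for 6 a 2-fold higher level. A 2-fold induction lay outside the interval of 33 members. With 3 samples in each group the smallest p of an exact permutation test is 0.10, and p-values are therefore those of the model across genes. In bulk samples, fewer cells of a type and less RNA per cell cannot be told apart.

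**Figure D1:**
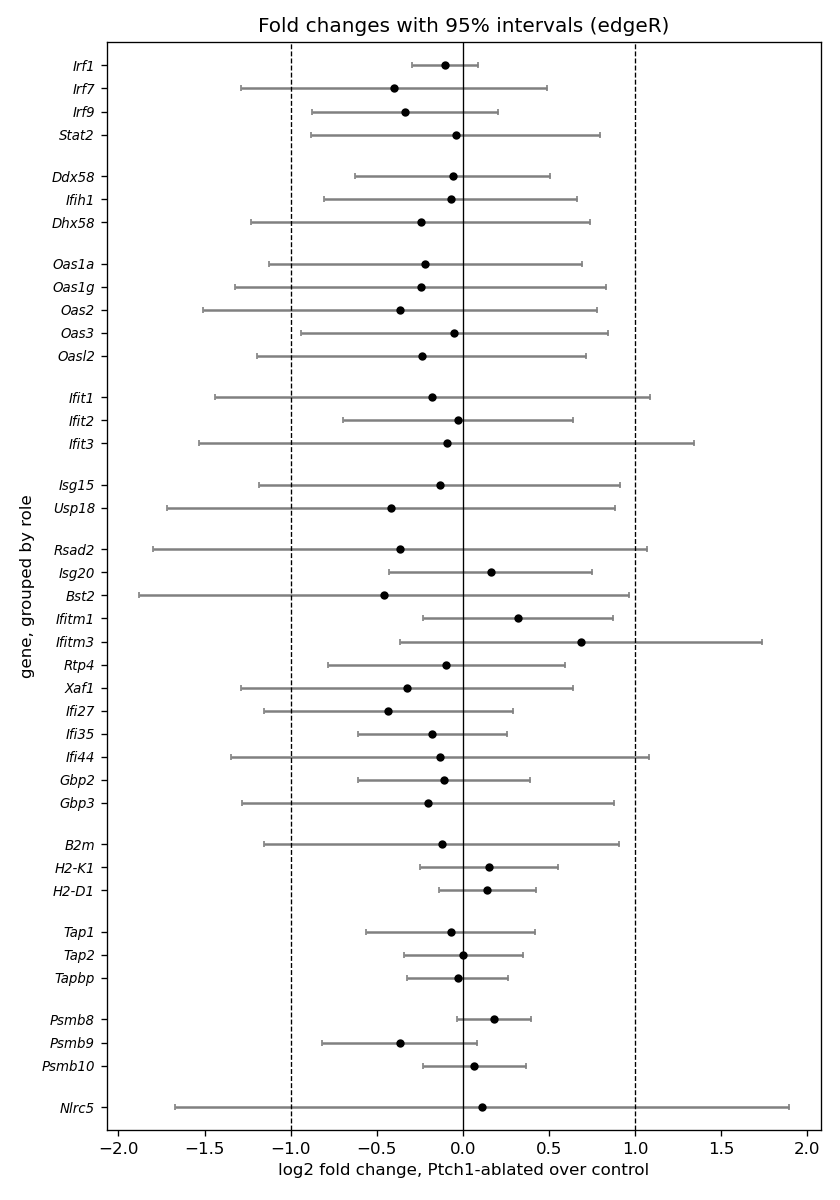
Log2 fold change of each member, Ptch1-ablated over control, with its 95% interval from edgeR, grouped by role. Each of the 39 intervals holds 0, and the values run from -0.46 for *Bst2* to 0.68 for *Ifitm3*.

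The members were abundant in both groups. Their median level over the 6 samples was 100.5 TPM, beside 18.4 TPM over tested genes, and 36 of 39 had at least 10 TPM. The levels ran from 1.203 TPM for *Nlrc5* to 931 TPM for *Ifitm1*. After *Ifitm1* came *H2-D1* at 460 TPM, *B2m* at 450, *Ifit3* at 417 and *H2-K1* at 362, and the samples of these 4 overlapped one another in TPM.

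**Figure D2:**
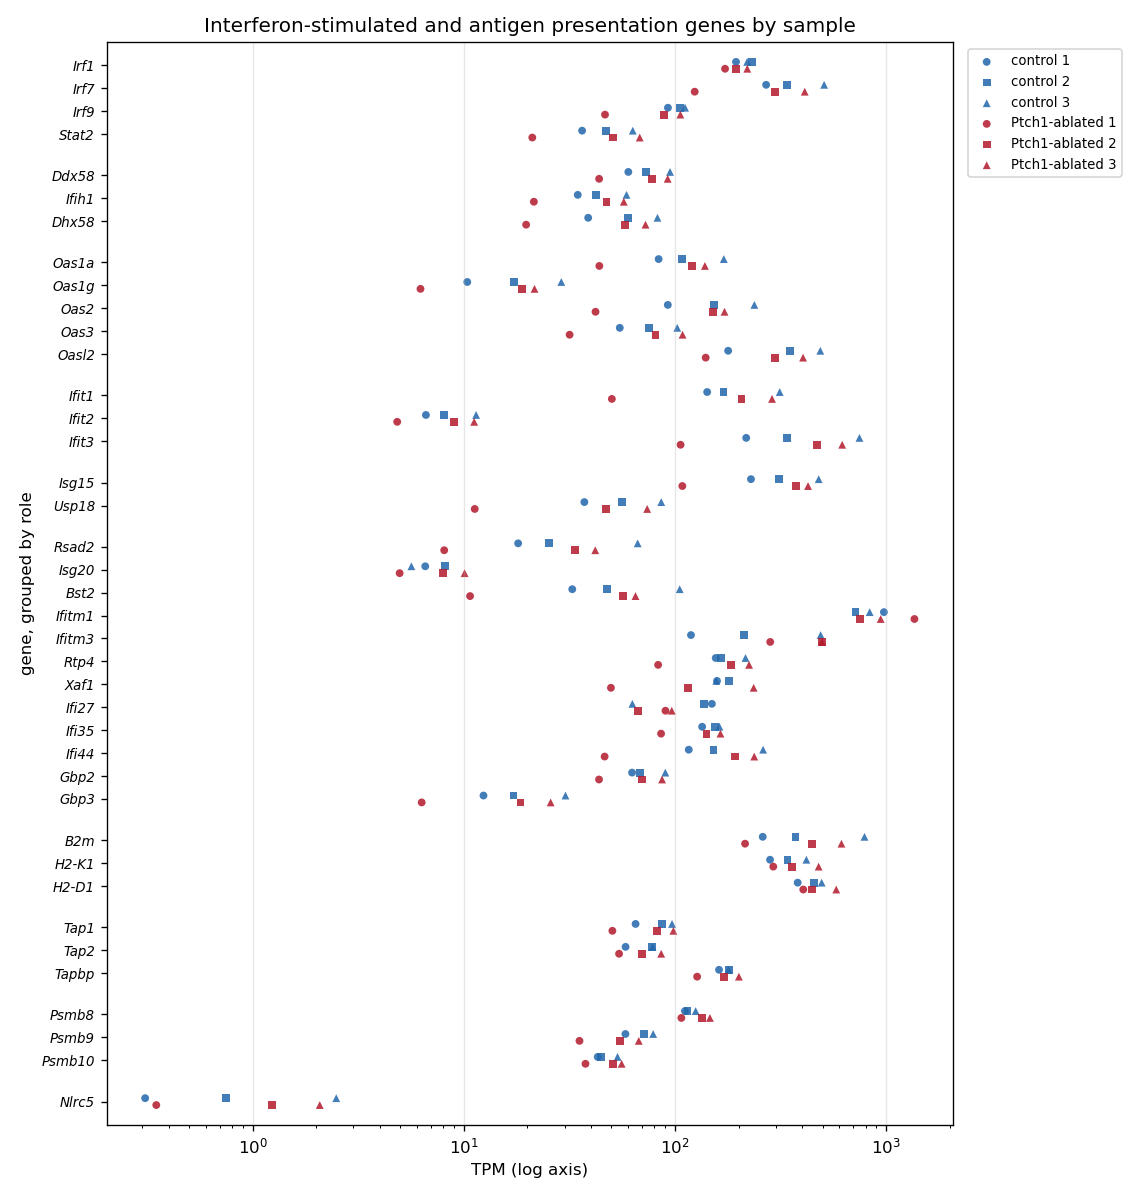
TPM of each member in each sample on a log axis, grouped by role, with controls in blue and Ptch1-ablated samples in red and 1 marker shape per replicate number. Blue and red points overlap for every gene, *Ifitm1* lies highest and *Nlrc5* lowest, and the circles of replicate 1 lie to the left in most rows.

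Among the transcription factors, *Irf7*, the regulator that amplifies interferon production, had both the highest mean TPM and the largest fold change. It had 4663, 5648 and 8340 normalized counts in control replicates 1, 2 and 3 and 2239, 5144 and 6762 in the Ptch1-ablated replicates. Ptch1-ablated replicate 1 was the lowest of the 6 samples, and the other two fell inside the control range. The log2 fold change was -0.40 (standard error 0.38, 95% interval -1.29 to 0.49, adjusted p = 0.502). *Irf9* and *Stat2*, which take part in ISGF3, had log2 fold changes of -0.34 and -0.04 (adjusted p = 0.349 and 0.949). *Irf1*, a factor of the interferon gamma response that was named after its values were seen, was steady, at 3953, 4537 and 4223 against 3666, 3926 and 4249 normalized counts. Its interval, from -0.29 to 0.09 on the log2 scale, was among the narrowest of the set.

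The 3 RNA sensors, which detect viral RNA in the cytoplasm, had log2 fold changes from -0.25 to -0.06. *Ddx58*, which encodes RIG-I, had 2869, 3330 and 4275 normalized counts in controls and 2178, 3690 and 4185 in Ptch1-ablated samples. *Dhx58*, which encodes the regulator LGP2, had 894, 1321 and 1800 against 474, 1323 and 1587. In both genes Ptch1-ablated replicate 1 was the lowest of the 6 samples, and the other 2 Ptch1-ablated samples lay within the control range. The adjusted p was 0.890 for *Ddx58* and 0.721 for *Dhx58*, and that of *Ifih1*, which encodes MDA5, was 0.897.

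The OAS family makes the oligoadenylates that activate RNase L. Its 5 members had log2 fold changes from -0.37 to -0.05, all below 0 and none past the test. *Oasl2*, the most abundant, had 4623, 8700 and 11938 normalized counts in controls and 3775, 7677 and 9941 in Ptch1-ablated samples (log2 fold change -0.24, standard error 0.41, adjusted p = 0.720). *Oas2* had 3541, 5592 and 8597 against 1684, 5765 and 6300 (-0.37, standard error 0.49, adjusted p = 0.639). Both genes spanned more than 2-fold within each group, so the groups overlapped over most of their range.

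The IFIT proteins bind foreign RNA. *Ifit3* had 4094, 6178 and 13361 normalized counts in controls and 2092, 8910 and 11137 in Ptch1-ablated samples, a difference of -0.09 on the log2 scale (standard error 0.62). *Ifit1* had 3585, 4116 and 7477 against 1323, 5188 and 6908 (-0.18, standard error 0.54, adjusted p = 0.849). *Ifit1* ranged 5.22-fold within the Ptch1-ablated group, far more than the difference between the groups. *Ifit2*, at 8.53 TPM, was the least abundant of the 3 and had a log2 fold change of -0.03.

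*Isg15* encodes a ubiquitin-like modifier and *Usp18* the protease that removes it and restrains the type I receptor. *Isg15* had 1578, 2048 and 3123 normalized counts in controls and 779, 2572 and 2794 in Ptch1-ablated samples (log2 fold change -0.14, adjusted p = 0.862). *Usp18* had 625, 901 and 1367 against 197, 788 and 1178 (-0.42, standard error 0.56, adjusted p = 0.638). For both, Ptch1-ablated replicate 1 was below every other sample and the remaining values interleaved.

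The 12 other effectors held the members that departed most from the rest. *Ifitm1*, which encodes a membrane protein that hinders viral entry, had 5967, 4207 and 4838 normalized counts in controls and 8667, 4584 and 5477 in Ptch1-ablated samples (log2 fold change 0.32, standard error 0.24, adjusted p = 0.383). It was highest in replicate 1 of each group, the samples in which most members were lowest. *Ifitm3*, its relative, had 696, 1186 and 2702 against 1721, 2886 and 2754 (0.68, standard error 0.45, adjusted p = 0.326), the largest fold change of the set. Its Ptch1-ablated samples lay above 2 of the controls and around the third. *Ifitm3* also stood among the 7 limbal markers, of which 6 were analysed. These 6 summed to 1077 to 2136 TPM in controls and 1696 to 3737 TPM in Ptch1-ablated samples. Most of that sum came from *Krt15*, at 847 to 1528 and 1066 to 3296 TPM, and *Ifitm3* itself is in it. Of the 6, 0 were higher and 1 lower at the adjusted threshold, where 7.61% and 6.41% of all tested genes were. The lower one was *Abcg2* (log2 fold change -0.53, adjusted p = 0.0476 in edgeR's fit). The part of limbal cells in the level of *Ifitm3* was not tested.

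*Bst2*, which tethers budding virus and was named after its values were seen, had the lowest fold change of the set, with 241, 338 and 737 normalized counts against 82.7, 418 and 457 (-0.46, standard error 0.61, adjusted p = 0.637). *Ifi27*, a small mitochondrial protein gene also named afterwards, ran against the common order, at 1385, 1216 and 558 in controls and 869, 622 and 849 in Ptch1-ablated samples. Its log2 fold change was -0.43 (adjusted p = 0.366), and without control replicate 3 it was -0.74 (adjusted p = 0.0489). *Isg20*, an exonuclease gene, was low at 7.23 TPM, with a log2 fold change of 0.16. The remaining 7 effectors, *Rsad2*, *Rtp4*, *Xaf1*, *Ifi35*, *Ifi44*, *Gbp2* and *Gbp3*, had log2 fold changes from -0.37 to -0.10 and adjusted p from 0.540 to 0.883.

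The 10 antigen presentation members varied less from sample to sample than the other 29, with a median within-group standard deviation of 0.25 on the log2 scale against 0.68, and *B2m* and *Nlrc5* were exceptions. *H2-D1*, a class I heavy chain, had 6266, 7170 and 7698 normalized counts in controls and 6953, 7307 and 9063 in Ptch1-ablated samples (log2 fold change 0.14, 95% interval -0.14 to 0.42, adjusted p = 0.448). *H2-K1*, the other classical heavy chain, had 4526, 5237 and 6352 against 4850, 5716 and 7323 (0.15, 95% interval -0.25 to 0.55, adjusted p = 0.578). Class I genes are near-identical in parts, and reads they share were divided by estimation. *B2m*, the light chain and named after its values were seen, varied more than its partners, with 2053, 2820 and 5888 against 1768, 3505 and 4600 (-0.12, 95% interval -1.16 to 0.91).

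*Tapbp*, which encodes tapasin, had 4254, 4558 and 4463 normalized counts in controls and 3498, 4481 and 5018 in Ptch1-ablated samples (log2 fold change -0.03). *Tap1*, a chain of the peptide transporter, had 1836, 2344 and 2587 against 1491, 2316 and 2630 (-0.07, adjusted p = 0.843). *Tap2*, the partner chain, had a log2 fold change of 0.00 and an interval of -0.34 to 0.35.

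*Psmb8*, an immunoproteasome subunit, had 1276, 1259 and 1356 normalized counts in controls and 1281, 1533 and 1591 in Ptch1-ablated samples (log2 fold change 0.18, standard error 0.09, adjusted p = 0.217). Ptch1-ablated replicate 1 lay within the control values and the other 2 above them. Without that sample the log2 fold change was 0.27 (adjusted p = 0.0476). *Psmb9* had 444, 523 and 565 against 283, 415 and 489 (-0.37, standard error 0.19, adjusted p = 0.223), and *Psmb10* had a log2 fold change of 0.07. The constitutive subunits *Psmb6* and *Psmb7* had means of 184 and 163 TPM, each above its immunoproteasome replacement in every sample, at 61.0 TPM for *Psmb9* and 47.6 TPM for *Psmb10*. *Psmb5* had 132 TPM and overlapped its replacement *Psmb8*, at 123 TPM. The log2 fold changes of *Psmb5*, *Psmb6* and *Psmb7* were 0.04, -0.05 and -0.04. *Nlrc5*, the transactivator of class I genes, was the least abundant member, with 21.9, 49.2 and 163 normalized counts in controls and 25.8, 87.2 and 139 in Ptch1-ablated samples (0.11, standard error 0.77).

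The larger differences in the set lay between samples of the same group. The within-group standard deviation on the log2 scale had a median of 0.63 over the members, against 0.14 over all tested genes and 0.12 over the 10323 genes whose mean reached 100 normalized counts. Of the 39 members, 33 exceeded 0.27, the value under which 90% of those 10323 genes lay. The standard deviation ran from 0.10 for *Irf1* to 1.33 for *Nlrc5*. The highest sample was a median of 1.64-fold above the lowest among controls and 2.45-fold among Ptch1-ablated samples, beside 1.16-fold and 1.21-fold over all tested genes. No test was made of these spreads.

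**Figure D3:**
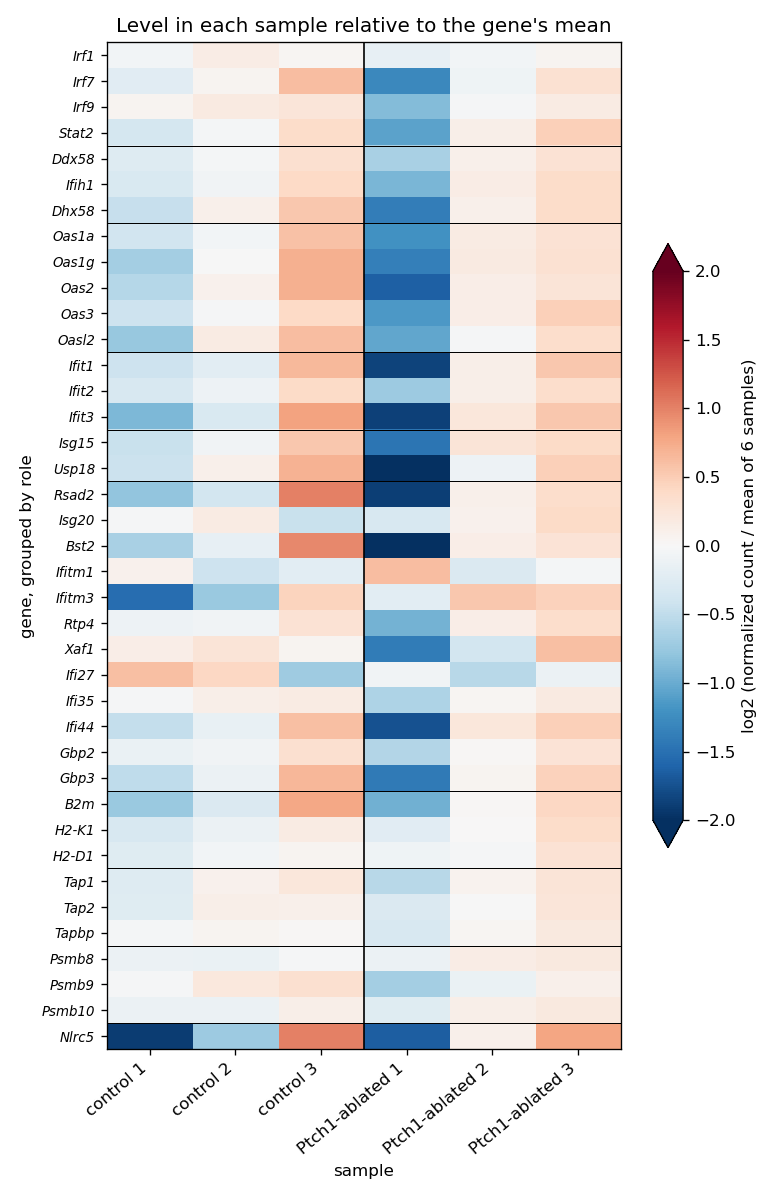
Log2 ratio of the normalized count of each member in each sample to the gene's mean normalized count over the 6 samples. Ptch1-ablated replicate 1 is the lowest column for most genes and replicate 3 of both groups is high, with *Ifitm1* and *Ifi27* running the other way.

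The members moved together over the 6 samples. Within the controls, 33 members were lowest in replicate 1 and 32 were highest in replicate 3. Within the Ptch1-ablated samples, 37 were lowest in replicate 1 and 36 were highest in replicate 3. Both held in both groups for 29 of 39 members and for 4.78% of all tested genes. Ptch1-ablated replicate 1 was the lowest of all 6 samples for 31 members, where it was the lowest for 27.8% of tested genes. The summed TPM of the members was 5143, 6113 and 8605 in controls and 4392, 6550 and 8249 in Ptch1-ablated samples. The replicate numbers are names and have no order.

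For 26 members the correlation with the mean of the other members was at least 0.90 (Pearson's r over 6 samples, a description that rests on shared libraries). *Ifitm1* and *Ifi27* lay below 0, and *Isg20* and *Ifitm3* at 0.37 and 0.48. Among the genes outside the lists, the 5 most like the mean of the members were *Rbm26*, *Rnf213*, *Znfx1*, *Aox1* and *Ikzf3*, with r from 0.983 to 0.998 over the 6 samples. *Rnf213* spanned 1724 to 7091 normalized counts over the samples and *Rbm26* 1335 to 1574, so genes of large and small range shared the pattern. None of these 5 passed edgeR's test between the groups (adjusted p from 0.682 to 0.984). They were chosen for likeness to a mean in which the groups overlapped, so this outcome was fixed by the choice and is no separate result.

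The sign of the members' median depended on single samples. Without Ptch1-ablated replicate 1 the median log2 fold change was 0.14 with 33 members above 0, and without control replicate 3 it was 0.14 with 30 above 0. Without Ptch1-ablated replicate 3 it was -0.42 with 35 below 0, and without control replicate 1 it was -0.23 with 32 below 0. With replicates 2 and 3 of each group only, a choice made after seeing the data, it was 0.03 with 23 above 0 and 16 below. Ptch1-ablated replicate 1, the sample lowest for most members, also had the highest leukocyte, conjunctival and limbal marker sums and the lowest corneal epithelial sum, 89584 TPM, and control replicate 3, the highest of all 6 for 22 members, had the highest stromal sum. Ptch1-ablated replicate 3, the highest of all 6 for 13 members, had the lowest stromal sum, 8.27 TPM. The part of the cells behind these markers in the members' levels was not tested.

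The wider pathway was described with 162 further genes, of which 150 were analysed and 124 tested. Of these, 7 were higher and 2 lower in Ptch1-ablated epithelium at the adjusted threshold (7.61% and 6.41% of all tested genes were), and the median log2 fold change was -0.05. These counts varied with the method and the samples, with 9 higher and 5 lower in DESeq2, where 10.3% and 7.95% of all genes were. With 1 sample left out they ran from 1 higher without control replicate 2 to 8 higher without control replicate 3, and 0 or 1 lower. The shares of all tested genes in these left-out fits are not given here, so a change particular to the pathway cannot be read from them. Of the 21 interferon genes themselves, 14 were analysed and 0 had enough counts to be tested. The highest value was 8 counts, for *Ifna13*, and 12 of the 14 stayed at or under 3 counts in every sample, so ligand RNA was not detectable at this depth for these 12.

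Among the receptors, *Ifngr1*, the ligand-binding chain for interferon gamma, was higher in Ptch1-ablated epithelium. It had 1197, 1098 and 1113 normalized counts in controls and 3065, 2111 and 2068 in Ptch1-ablated samples (log2 fold change 1.09, standard error 0.15, adjusted p = 0.0103). *Ifnar2*, a chain of the type I receptor, was also higher, at 215, 186 and 236 against 356, 296 and 315 (0.60, standard error 0.12, adjusted p = 0.0245). In both genes every Ptch1-ablated sample lay above every control. Their partner chains did not pass, with log2 fold changes of -0.12 for *Ifngr2* and -0.05 for *Ifnar1*. The type III receptor chains *Ifnlr1* and *Il10rb* had -0.21 and 0.08, and also did not pass.

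In the relay below the receptors, the kinases *Jak1*, *Jak2* and *Tyk2* had log2 fold changes of 0.02, 0.08 and -0.03. Of the 11 relay and inhibitor genes tested, 2 were higher and 1 lower in edgeR's test, where 7.61% and 6.41% of all tested genes were. The 2 higher were *Socs3* and *Socs1*, which feed back on the kinases. *Socs3* had 31.8, 22.6 and 12.6 normalized counts in controls against 571, 329 and 465 in Ptch1-ablated samples (log2 fold change 4.34, standard error 0.32, adjusted p = 0.00263), and *Socs1* had 71.5, 66.9 and 67.0 against 97.2, 114 and 158 (0.85, standard error 0.21, adjusted p = 0.0384). *Ptpn6*, the phosphatase SHP-1, was lower, at 708, 804 and 808 against 435, 588 and 609 (-0.51, standard error 0.13, adjusted p = 0.0464).

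Of the DNA and RNA sensing genes beside the members, *Sting1*, the adaptor of cytoplasmic DNA sensing, was higher from a low level, with 4.97, 9.83 and 11.6 normalized counts against 58.9, 23.6 and 33.8 (log2 fold change 2.12, standard error 0.46, adjusted p = 0.0275). *Irf3*, the factor activated downstream of the sensors, was lower, at 1284, 1416 and 1280 against 985, 1001 and 1134 (-0.35, standard error 0.08, adjusted p = 0.0338). For both genes the groups did not overlap.

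Of 57 other interferon-induced genes tested, 2 were higher and 0 lower in edgeR's test, where 7.61% and 6.41% of all tested genes were. Their median log2 fold change was -0.13. DESeq2 called 3 higher and 2 lower (10.3% and 7.95% of all genes), and limma-voom 2 and 0 (7.11% and 6.39%). At an unadjusted p under 0.05 in edgeR there were 4 higher and 5 lower, where 17.0% and 16.5% of all tested genes were. *Ifi204*, a DNA-binding PYHIN protein gene, had 181, 304 and 637 normalized counts in controls and 1268, 1791 and 1965 in Ptch1-ablated samples (2.16, standard error 0.41, adjusted p = 0.0204). It belongs to a family of near-identical neighbours among which reads may be divided. *Ifitm2* had 1066, 1034 and 1075 against 1520, 1357 and 1255 (0.38, standard error 0.08, adjusted p = 0.0281). The difference between the response of *Ifitm2* and that of *Ifitm1* or *Ifitm3* was not tested. None of the 11 other class I genes, the 7 class I chaperone and trimming genes, the 3 constitutive subunits or the 12 class II genes tested passed in either direction in edgeR's test. Of all tested genes, 7.61% passed as higher and 6.41% as lower. At an unadjusted p under 0.05 there were 2 other class I genes higher and 1 lower, 1 class II gene lower and 0 in the remaining lists, beside the same 17.0% and 16.5%. DESeq2 called 1 of the other class I genes lower (7.95% of all genes) and limma-voom 1 higher (7.11%). Both called 0 in the remaining lists. The class II median log2 fold change was -0.25.

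**Figure D4:**
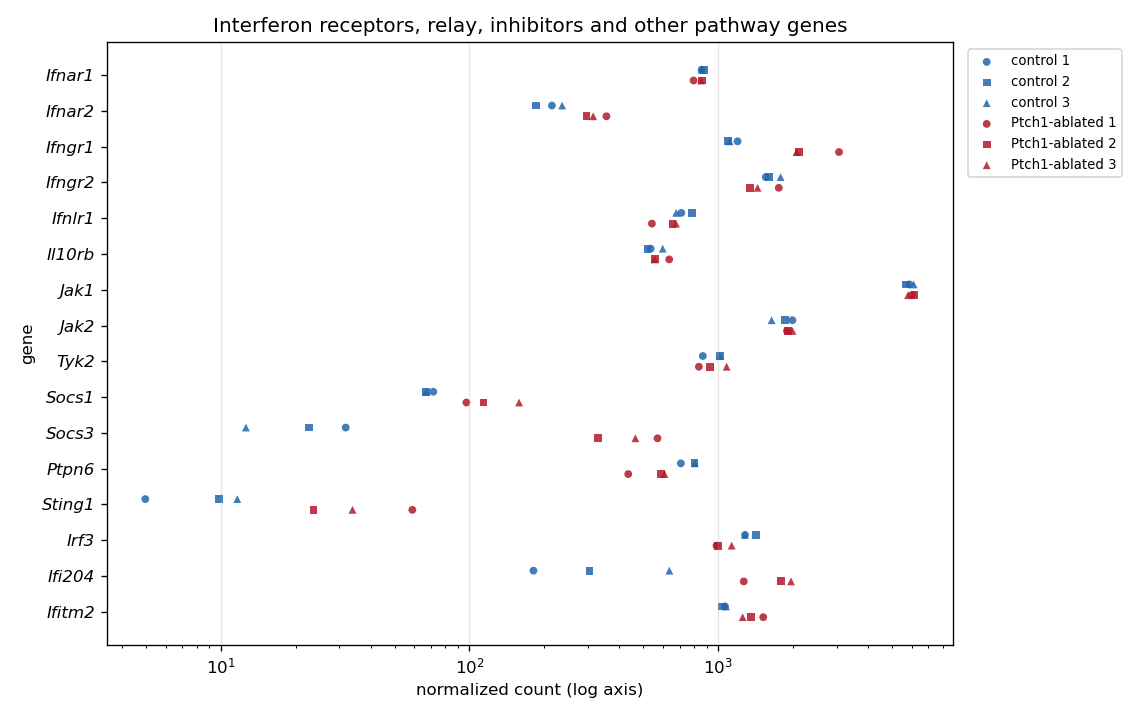
Normalized counts of the interferon receptors, the JAK kinases and the 9 pathway genes past the adjusted threshold, per sample on a log axis. The red points lie right of the blue for *Ifnar2*, *Ifngr1*, *Socs1*, *Socs3*, *Sting1*, *Ifi204* and *Ifitm2* and left of them for *Ptpn6* and *Irf3*, and narrowly left for *Ifnlr1*, which did not pass the test, and the colours mix in the other rows.

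All of these 9 calls but that of *Socs3* missed the threshold in at least 1 fit that left out 1 sample. Such fits have fewer samples, and the effect of that on the adjusted p was not tested. *Socs3* passed in all 6 fits that left out 1 sample, and *Ifngr1* and *Ifi204* missed only without control replicate 2 (adjusted p = 0.0650 and 0.0970). *Ifnar2*, *Socs1*, *Ptpn6*, *Sting1*, *Irf3* and *Ifitm2* missed without control replicate 1 (0.0671 to 0.0881) and without control replicate 2 (0.0970 to 0.152). All of these but *Ifnar2* missed without control replicate 3 (0.0592 to 0.113). Without Ptch1-ablated replicate 1, *Sting1* and *Irf3* missed (0.0502 and 0.0654), without replicate 2, *Socs1*, *Ptpn6*, *Irf3* and *Ifitm2* (0.0625 to 0.0889), and without replicate 3, *Socs1* and *Ptpn6* (0.0733 and 0.0514). With limma on log2 TPM *Socs1* (0.0516 to 0.0535) and *Ptpn6* (0.0655 to 0.0663) missed. Each of the 9 kept its direction in these fits. With 1 sample left out, log2 fold changes ran from 4.06 to 4.68 for *Socs3*, 0.88 to 1.19 for *Ifngr1* and 1.83 to 2.79 for *Ifi204*. They ran from 0.51 to 0.68 for *Ifnar2*, 0.62 to 0.99 for *Socs1* and -0.60 to -0.37 for *Ptpn6*. For *Sting1* they were 1.69 to 2.37, for *Irf3* -0.42 to -0.30 and for *Ifitm2* 0.31 to 0.44.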

How the data were processed

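The members and gene lists were chosen with earlier results of these data known. RNA of EDTA-separated corneal epithelial cells was sequenced in 6 samples, 3 per group by their labels. The study's methods describe rRNA depletion and DNA nanoballs, and the labels an Illumina kit. The authors aligned reads with Bowtie2 2.2.5 and quantified genes with RSEM 1.2.12, and the submitters' processing notes name the build mm9. The annotation was not given in the sources used here. The deposited expected counts are RSEM estimates per gene without scaling for depth, in which reads that match several genes are divided. Of the values above 0, 39.4% were not whole, as were values of 25 members, and expected counts were rounded. The deposited TPM values are scaled by RSEM for length and depth, and the authors' FPKM values were not used.

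Genes that passed filterByExpr (12999) were tested with the quasi-likelihood test of edgeR 4.0.16 in R 4.3.3, with TMM factors (0.960 to 1.03) and Benjamini-Hochberg adjustment over all of them. Normalized counts are CPM on TMM-scaled sizes times the mean scaled size. Values in every sample are given for the most abundant member and the member with the largest fold change in each role, by rule, and for members named as chosen afterwards. Pathway genes named were the receptors, kinases, *Socs1* and constitutive subunits, and up to 5 others per list past the adjusted threshold, and 1 gene that meets the rule is not reported here. Samples of a group differed by more than sampling noise (chi-square per degree of freedom 10.1 to 37.8). Alternatives were DESeq2 1.42.0, limma-voom and limma 3.58.1 on log2(TPM + 1) or log2(TPM + 0.1), other factors and filters, a replicate block and each sample left out. Promoter sequences are from RefSeq in GRCm38.p6, another build than that of the files, and were matched by symbol or gene ID.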

Additional observations from a re-analysis of the deposited data

How the results depend on the processing

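At most 1 member passed the adjusted threshold under any alternative run. DESeq2, limma-voom, limma on TPM with either pseudocount, the RLE and upper-quartile factors and both other filters gave 0, with a smallest adjusted p from 0.196 to 0.247. Over all tested genes, samples of the same number did not deviate together (correlations of 0.10, -0.04 and 0.01). Not every sample correlated best with its own number, so the numbers were not taken as pairs. The members moved together over the samples, so the order they share does not count once per gene and does not show that numbers pair. Of the members, 29 were lowest in replicate 1 and highest in replicate 3 of both groups, where 4.78% of all tested genes were. With the replicate block 1 member was lower, *Oasl2* (log2 fold change -0.25, adjusted p = 0.0480 in edgeR), and 10 pathway genes were higher and 8 lower, against 7 and 2 without it, and 5 were lower in DESeq2. *Socs1* and *Sting1* missed the threshold with the block (adjusted p = 0.0507 and 0.0508). Each sample left out in turn gave 0 to 1 members higher, 0 to 1 lower, 1 to 8 pathway genes higher and 0 to 1 lower, and a median log2 fold change from -0.42 to 0.14. That member was *Psmb8* or *Ifi27*. Shares of all tested genes under the block and in the left-out fits are not given here, so these pathway counts cannot be set against them.

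Of the log2 fold changes, only that of *Tap2* turned under another setting with all samples, with -0.00804 under upper-quartile factors, -0.0032 with a filter of 1 count, -0.0033 with the replicate block, -0.0034 in limma-voom and -0.0426 and -0.0433 in limma on TPM with a pseudocount of 1 and 0.1. With each sample left out in turn, the sign turned at least once for 30 members, whose ranges on the log2 scale were *Stat2* -0.38 to 0.29, *Ddx58* -0.25 to 0.18, *Ifih1* -0.32 to 0.23, *Dhx58* -0.57 to 0.12, *Oas1a* -0.48 to 0.13, *Oas1g* -0.52 to 0.18, *Oas2* -0.67 to 0.0326, *Oas3* -0.39 to 0.30, *Oasl2* -0.56 to 0.10, *Ifit1* -0.64 to 0.26, *Ifit2* -0.26 to 0.23, *Ifit3* -0.52 to 0.52, *Isg15* -0.42 to 0.26, *Usp18* -0.97 to 0.0307, *Rsad2* -0.75 to 0.36, *Isg20* -0.019 to 0.33, *Bst2* -0.81 to 0.14, *Rtp4* -0.35 to 0.20, *Xaf1* -0.95 to 0.0407, *Ifi35* -0.34 to 0.0286, *Ifi44* -0.51 to 0.30, *Gbp2* -0.30 to 0.10, *Gbp3* -0.60 to 0.20, *B2m* -0.44 to 0.43, *H2-K1* -0.0241 to 0.29, *Tap1* -0.24 to 0.14, *Tap2* -0.13 to 0.13, *Tapbp* -0.15 to 0.10, *Psmb10* -0.0187 to 0.19 and *Nlrc5* -0.47 to 1.24. Of these, 21 turned without control replicate 3 and 24 without Ptch1-ablated replicate 1. At this depth 37 members had a mean of at least 100 normalized counts, all but *Nlrc5* and *Isg20*, and the spread between 3 samples set the width of the intervals.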
